A study of Mus musculus with 6 samples.

Results

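The genes of cholesterol and fatty acid synthesis described here are 40 named genes of the sterol regulatory element-binding proteins (SREBPs), the sterol and fatty acid pathways and the liver X receptors (LXRs). They were chosen by name, and all 40 are among the 14481 genes of the deposited count table. They comprise 8 enzymes from acetyl-CoA to squalene, 9 from squalene to cholesterol, 6 genes of SREBP control and sterol carriage, 12 of fatty acid synthesis and modification and 5 of the LXR branch. The cells were cytotoxic (CD8+) T cells sorted from wild-type (WT) mice and cultured in RPMI, 10% FBS. They were activated for 1 day with 0.1 µg/ml interleukin 2 and with 1 µg/ml each of antibodies to CD28 and, bound to the plate, to CD3. Conditioned medium (CM) of astrospheres was then present for 2 days until the Day 3 harvest, from pSTAT3+ astrospheres in 3 libraries (STAT3+ CM) and from pSTAT3- astrospheres in 3 (STAT3- CM). STAT3 is a transcription factor that cytokines switch on by phosphorylation, and pSTAT3 denotes that state. Activation, interleukin 2, serum and CM were common to both groups, and cells without CM were not analysed here. The design asks how the products secreted by the 2 kinds of astrosphere alter gene expression in the T cells. Values are CPM, read counts scaled to a common library size with TMM factors. A log2 fold change is STAT3+ CM minus STAT3- CM and is given with its standard error (SE).

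Cells build cholesterol from acetyl-CoA through mevalonate, isoprenoids, squalene and lanosterol, and build fatty acids from the same precursor. SREBP2 mainly drives the sterol genes and SREBP1 mainly the fatty acid genes. Both are held in the endoplasmic reticulum by INSIG proteins through the escort protein SCAP when sterols are plentiful. LXRs, with their partner RXR, sense oxysterols and switch on sterol export and SREBP1. Activated T cells need these pathways to make membrane for growth and division.

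The promoters of these genes are shown because SREBPs are known to bind the sterol regulatory element (SRE) together with the factor NF-Y, which binds the CCAAT box. RefSeq windows (GRCm38.p6) from 250 bases before to 50 after a start site matched 32 of the 40 genes, with 42 windows. No window was held for Fdps, Fdft1, Sqle, Stard4, Scd1, Scd2, Fads1 and Abcg1. The motif TCACNCCAC, searched on both strands, was found in Hmgcs1 alone among the 32 genes, or 3.13%, beside 1.33% of 10321 genes of the count table with a window. The box CCAAT, in either orientation, was found in 23 of the 32 genes (71.9%), beside 43.1% of all genes with a window. It was in 8 of 8 genes of the steps from squalene to cholesterol, in 5 of 6 from acetyl-CoA to squalene, in 5 of 9 of the fatty acid genes and in 1 of 4 LXR genes. The E-box CACGTG was found in 7 of the 32 (21.9%, beside 11.6%), the Sp1 box GGGCGG in 25 (78.1%, beside 67.6%) and the sequence AGGTCA, which many nuclear receptors recognise, LXRs included, in 6 (18.8%, beside 15.1%). These letter matches describe the windows and show no binding. Other variants of the SRE and sites outside the windows were not searched, so a gene without a match may still hold an SRE.

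The windows of 3 genes are printed, chosen after the values were seen. Hmgcs1 was the only gene with the SRE letters, Lss the gene whose groups did not overlap and Fasn the gene with the smallest p-value. Capitals mark the SRE and the CCAAT boxes (CCAAT or ATTGG), and each runs 5′ to 3′ on the strand of the gene. The Hmgcs1 window, chr13:119690101-119690400 on the plus strand, holds the SRE letters TCACCCCAC starting 137 bases before the start site and 4 CCAAT boxes. A GENCODE transcript start was matched in 37 of the 42 windows, but not in that of Hmgcs1. Its positions therefore rest on the RefSeq start site alone. The Lss window, chr10:76531355-76531654 on the plus strand, holds 1 CCAAT box, which starts 62 bases before the start site. The Fasn window, chr11:120824498-120824797 on the minus strand, holds 3, of which those starting 62 and 59 bases before the start site overlap each other.
Hmgcs1: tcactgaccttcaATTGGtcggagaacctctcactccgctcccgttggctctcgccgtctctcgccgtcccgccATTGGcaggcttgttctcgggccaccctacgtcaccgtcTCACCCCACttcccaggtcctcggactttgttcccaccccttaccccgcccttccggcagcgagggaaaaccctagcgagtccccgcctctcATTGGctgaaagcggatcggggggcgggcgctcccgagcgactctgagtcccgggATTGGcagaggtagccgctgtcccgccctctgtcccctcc
Lss: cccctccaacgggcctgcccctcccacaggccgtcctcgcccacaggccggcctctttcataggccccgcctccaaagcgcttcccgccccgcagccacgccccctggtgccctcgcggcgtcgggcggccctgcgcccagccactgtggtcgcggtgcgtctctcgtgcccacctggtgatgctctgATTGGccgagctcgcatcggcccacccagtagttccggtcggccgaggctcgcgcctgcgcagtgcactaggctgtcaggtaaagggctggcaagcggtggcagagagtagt
Fasn: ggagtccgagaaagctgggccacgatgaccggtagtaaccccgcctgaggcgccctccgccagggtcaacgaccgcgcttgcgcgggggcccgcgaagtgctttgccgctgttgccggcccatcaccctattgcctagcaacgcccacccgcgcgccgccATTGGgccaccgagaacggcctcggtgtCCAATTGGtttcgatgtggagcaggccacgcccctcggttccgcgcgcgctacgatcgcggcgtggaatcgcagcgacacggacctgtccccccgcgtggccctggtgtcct

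No gene of the set passed the test between the media. In edgeR (quasi-likelihood F test, p adjusted by Benjamini-Hochberg over the 14319 genes tested) 0 of the 40 reached an adjusted p of 0.05, with adjusted p from 0.989 to 1.00, and 0% of all genes tested did. At an unadjusted p under 0.05 stood 0 of the 40, beside 3.64% of all genes. DESeq2 called 0 of the 40, beside 0.335% of all genes (48). The libraries of the 2 media did not overlap in 1 gene, Lss, or 2.5% of the set, beside 7.95% of all genes. Log2 fold changes ran from -0.45 (Fasn) to 0.34 (Nr1h3), with 14 above 0 and 26 below (10 above 0 with library totals as the only scaling). Their median was -0.047, beside 0.00076 over all genes. The 95% interval lay within a 2-fold change in either direction for 38 of the 40 and within 1.5-fold for 27. Scd1 and Nr1h3 had the 2 wider intervals, from -1.31 to 0.87 and from -0.49 to 1.17. The labels do not say whether the 3 replicates of a group were separate mice or cultures, so a p-value reflects the spread between libraries, which may be technical.

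**Figure D1:**
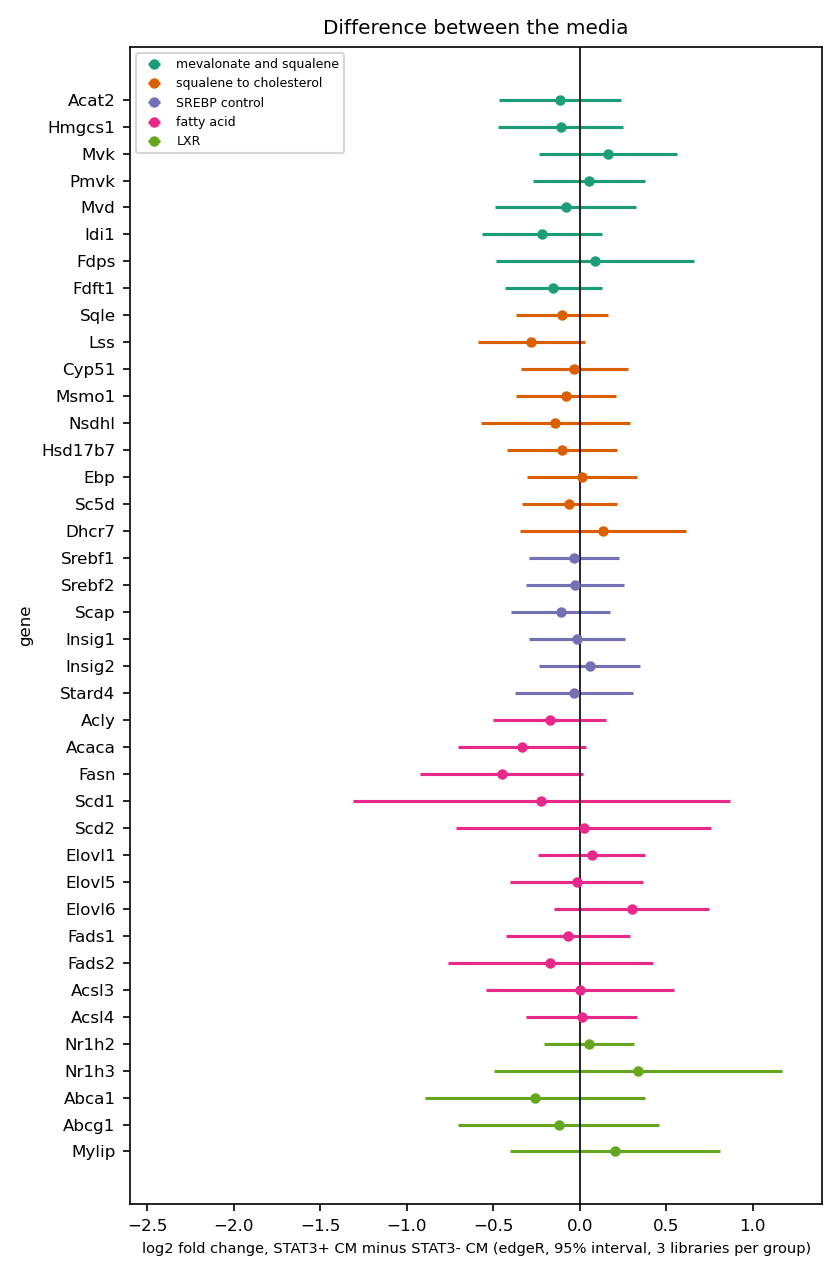
Log2 fold change of each of the 40 genes, STAT3+ CM minus STAT3- CM, on the x axis, with edgeR's 95% interval as the bar (3 libraries per group); colours give the gene groups. Every interval spans 0, and those of Scd1 and Nr1h3 are the widest.

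Total counts ran from 43346089 to 53630514 per library, and mitochondrially encoded genes took 1.6% to 1.98%. The 5 CD8 T cell markers were all present, with a summed level of 1932 to 2150 CPM in STAT3- CM and 1944 to 2553 in STAT3+ CM. Of 10 dendritic cell markers 7 were in the table, at a sum of 132 to 185 CPM in STAT3- CM and 95.3 to 119.9 in STAT3+ CM, while the defining genes Flt3, Clec9a and Xcr1 were not among the genes analysed here. Macrophage (4 of 6 in the table), B cell (1 of 5), CD4 T cell (2 of 2) and astrocyte (1 of 5) markers summed to at most 21.8 CPM in any library. On the principal components of all genes STAT3- CM replicate 3 (39.6 on the first) and STAT3+ CM replicate 1 (-38.1 on the second) lay farthest out, and results that rest on them are given without them.

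Levels in the set spanned 0.123 to 117 RPKM. Per length, as TMM-scaled CPM per kb of the longest annotated transcript (RPKM), the mean of 6 libraries was 117 for Idi1, the isomerase that makes the reactive isoprenoid unit, 104 for the desaturase gene Scd2, 94.8 for Hmgcs1, the HMG-CoA synthase, 83.2 for Acly, the ATP citrate lyase that supplies cytosolic acetyl-CoA, and 77.9 for Cyp51, the lanosterol demethylase. Each of these overlapped its neighbour in the order. The next gene, Srebf2, lay below them without overlap with Cyp51 (50.3 to 61.4 against 68.1 to 90.7 RPKM). At the low end were the sterol exporter gene Abcg1 (3.19), Mylip (1.13), Nr1h3 (0.207) and Abca1 (0.123), none of which overlapped the next in RPKM. The lowest library of Nr1h3 (0.150) lay just above the highest of Abca1 (0.149). With the median transcript length the means of Nr1h3 and Abca1 were 0.241 and 0.229, and their libraries overlapped. In bulk RNA, fewer cells that express a gene and less RNA per cell cannot be told apart.

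**Figure D2:**
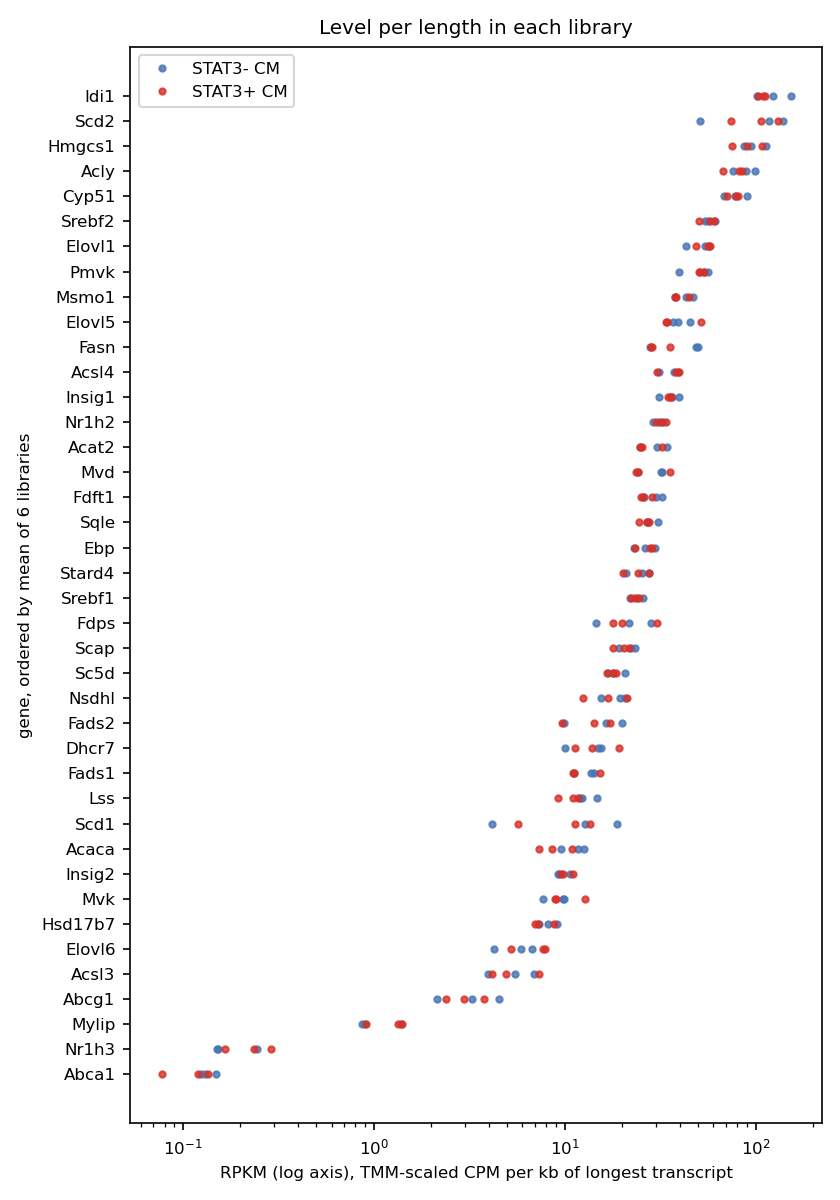
Level of each gene per length, as RPKM on a log axis, in each of the 6 libraries (blue, STAT3- CM; red, STAT3+ CM), with genes ordered by the mean of 6 libraries. Means run from Idi1 at 117 to Abca1 at 0.123 RPKM, and the points of the 2 media overlap in every gene but Lss.

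Where a step has paired genes in the set, 1 of them stood higher per length in every library when the longest transcript was used. Srebf2, the sterol-directed SREBP, had a mean of 56.9 RPKM against 23.7 for Srebf1, whose 1a and 1c forms the counts per gene do not separate. Insig1, itself a classic SREBP target, had 35.7 against 9.94 for Insig2. Scd2 had 104 against 11.05 for Scd1, desaturases of similar sequence among which reads can be misassigned. Acsl4, the acyl-CoA synthetase that prefers arachidonate, had 36.1 against 5.47 for Acsl3. The family members Acsl1, Acsl5 and Acsl6, outside the set, were not compared per length. Their means in STAT3- CM were 13.5, 351 and 3.36 CPM, beside 190 for Acsl4. The LXRβ gene Nr1h2 had 31.4 RPKM against 0.207 for the LXRα gene Nr1h3. With the median transcript length in place of the longest the order within each pair of means was the same. However, Srebf2 and Srebf1 (146 and 135 RPKM) and Insig1 and Insig2 (55.8 and 51.8) came close together. For Srebf2 over Srebf1 and Insig1 over Insig2 the order then did not hold in every library. The gaps of Scd2 over Scd1 (148 and 71.2 RPKM) and Acsl4 over Acsl3 (38.4 and 29.1) also shrank. Idi1 (475 RPKM), Fasn (424) and Cyp51 (416) then led the order.

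Among the 8 enzymes of the mevalonate branch 0 passed the threshold, and the media overlapped in each. Hmgcs1 stood at 299.5, 395 and 328 CPM in STAT3- CM replicates 1, 2 and 3 and at 374, 262 and 311 in the same order in STAT3+ CM, which gave a log2 fold change of -0.11 (SE 0.16). Its lowest library was STAT3+ CM replicate 2, and the groups overlapped. Idi1 stood at 374, 462 and 306 CPM in STAT3- CM and at 312, 339 and 332 in STAT3+ CM (-0.22, SE 0.16). Its STAT3+ CM libraries were close together and lay inside the range of the other medium. Fdft1, the squalene synthase that commits the pathway to sterols, stood at 96.6, 119 and 111 CPM and at 106, 92.7 and 94.8 (-0.15, SE 0.13), with STAT3+ CM replicate 1 inside the range of STAT3- CM. In the GENCODE annotation 18.3% of the exon bases of Fdft1 are shared with Ctsb on the opposite strand. Fdps shares 26.7% with Gm43738 on its own strand. On the opposite strand Hmgcs1 shares 12.1% with Gm48342, Idi1 9.2% with Gm48574 and the regulator Scap 13.2% with 5830462I19Rik. Of these other genes only Ctsb is among the genes analysed here. Acsl3 shares 5.6% with Utp14b on its own strand, and Cyp51 3.8% with Akap9 on the opposite strand. Elovl1 shares 1.9% with Cdc20, Srebf1 1.9% with Rai1 and Elovl6 0.53% with Gm35986, all on opposite strands. Utp14b, Akap9, Cdc20, Rai1 and Gm35986 are also in the count table. The strand setting of the counting is not given in the sources used here. Mvk, the mevalonate kinase, stood at 18.2, 23.6 and 23.2 CPM and at 30.5, 21.3 and 21.1 (0.16, SE 0.18), where STAT3+ CM replicate 1 was highest and the other libraries of that medium lay among those of STAT3- CM. Fdps, which makes farnesyl diphosphate, had the widest spread of the branch, with 42.8, 63.8 and 83.5 CPM against 90.2, 59.1 and 52.9 (0.088, SE 0.26). Acat2, the cytosolic thiolase (55.5 to 77.4 CPM over the 6 libraries, log2 fold change -0.12), Mvd, the diphosphomevalonate decarboxylase (43.5 to 65.2, -0.083), and Pmvk, the phosphomevalonate kinase (47.6 to 67.6, 0.053), also overlapped between media. Over the 8 genes the median log2 fold change was -0.097, with 3 above 0.

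In the steps from squalene to cholesterol, 7 of 9 genes had log2 fold changes below 0, with a median of -0.079 and 0 past the threshold. Lss, the lanosterol synthase, stood at 83.8, 103 and 85.9 CPM in STAT3- CM and at 77.3, 64.2 and 82.4 in STAT3+ CM (-0.28, SE 0.14, adjusted p = 0.989 by edgeR). The groups did not overlap, though STAT3+ CM replicate 3 lay just under STAT3- CM replicate 1, and with library totals only as the scaling they did overlap. Sqle, the squalene epoxidase and a rate-limiting step, stood at 122, 138 and 121 CPM and at 124, 110.0 and 121 (-0.10, SE 0.12). Nsdhl, which removes a carboxylated methyl group of the sterol ring, stood at 33.6, 42.4 and 44.7 CPM and at 46.0, 27.0 and 36.4 (-0.14, SE 0.19). Both sets of values interleaved, with STAT3+ CM replicate 2 lowest in each. Dhcr7, the reductase that completes cholesterol, stood at 28.3, 42.1 and 43.6 CPM and at 53.9, 32.0 and 39.1 (0.13, SE 0.22), with overlap. The other 5, Cyp51, Msmo1, Hsd17b7, Ebp and Sc5d, had log2 fold changes from -0.10 to 0.014 and differed at most 1.33-fold between their highest and lowest library.

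The regulators had the smallest median spread of the 5 gene groups. Srebf1 stood at 94.9, 111 and 103 CPM in STAT3- CM and at 100.1, 96.0 and 105 in STAT3+ CM (-0.034, SE 0.12). Srebf2 stood at 276, 287 and 312 CPM and at 294, 255 and 309 (-0.026, SE 0.13). Scap, the SREBP escort, stood at 98.6, 94.3 and 81.9 CPM and at 76.0, 86.4 and 92.2 (-0.11, SE 0.13). The ranges of the media overlapped in each. Insig1, an anchor of SCAP, stood at 98.3, 108 and 84.4 CPM and at 94.2, 97.5 and 95.9 (-0.014, SE 0.13), and Insig2, its relative, at 25.0, 25.1 and 28.8 and at 25.8, 26.5 and 29.6 (0.058, SE 0.13). Stard4, a cytosolic sterol carrier, ran from 103 to 141 CPM (-0.032, SE 0.15). The median SD of log2 CPM within a medium was 0.12 over these 6 genes, beside 0.22 over all genes tested and 0.30 over the 12 fatty acid genes. These are transcript levels, and the processing of the SREBP proteins was not measured.

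The fatty acid genes held both the smallest unadjusted p of the set, that of Fasn, and the widest spread within a medium, that of Scd1. Fasn, the fatty acid synthase, stood at 492, 503 and 282 CPM in STAT3- CM and at 285, 289 and 359.7 in STAT3+ CM (-0.45, SE 0.21, unadjusted p = 0.0587, adjusted p = 0.989 by edgeR). STAT3- CM replicates 1 and 2 were high, and replicate 3 was the lowest of all 6 libraries. Acaca, the acetyl-CoA carboxylase that makes malonyl-CoA, stood at 111, 119 and 90.7 CPM and at 81.3, 69.6 and 104 (-0.33, SE 0.17, unadjusted p = 0.0727, adjusted p = 0.989), and STAT3+ CM replicate 3 lay above STAT3- CM replicate 3. Acly stood at 394, 439 and 337 CPM and at 376, 298 and 364 (-0.17, SE 0.15). Without STAT3- CM replicate 3 the log2 fold change of Fasn was -0.68 and that of Acaca -0.44, and the adjusted p of Fasn was 0.171 by edgeR, the smallest of the set under any alternative. In that fit 8 of the 40 genes did not overlap (Acaca, Acly, Fasn, Idi1, Insig1, Insig2, Lss and Scap), 7 of them lower in STAT3+ CM, beside 22.9% of all genes. That is 20% of the set and close to the share of all genes. Elovl6, the elongase of palmitate, was on the other side at 25.3, 35.3 and 40.1 CPM against 47.1, 31.2 and 45.6 (0.30, SE 0.20), with overlap.

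**Figure D3:**
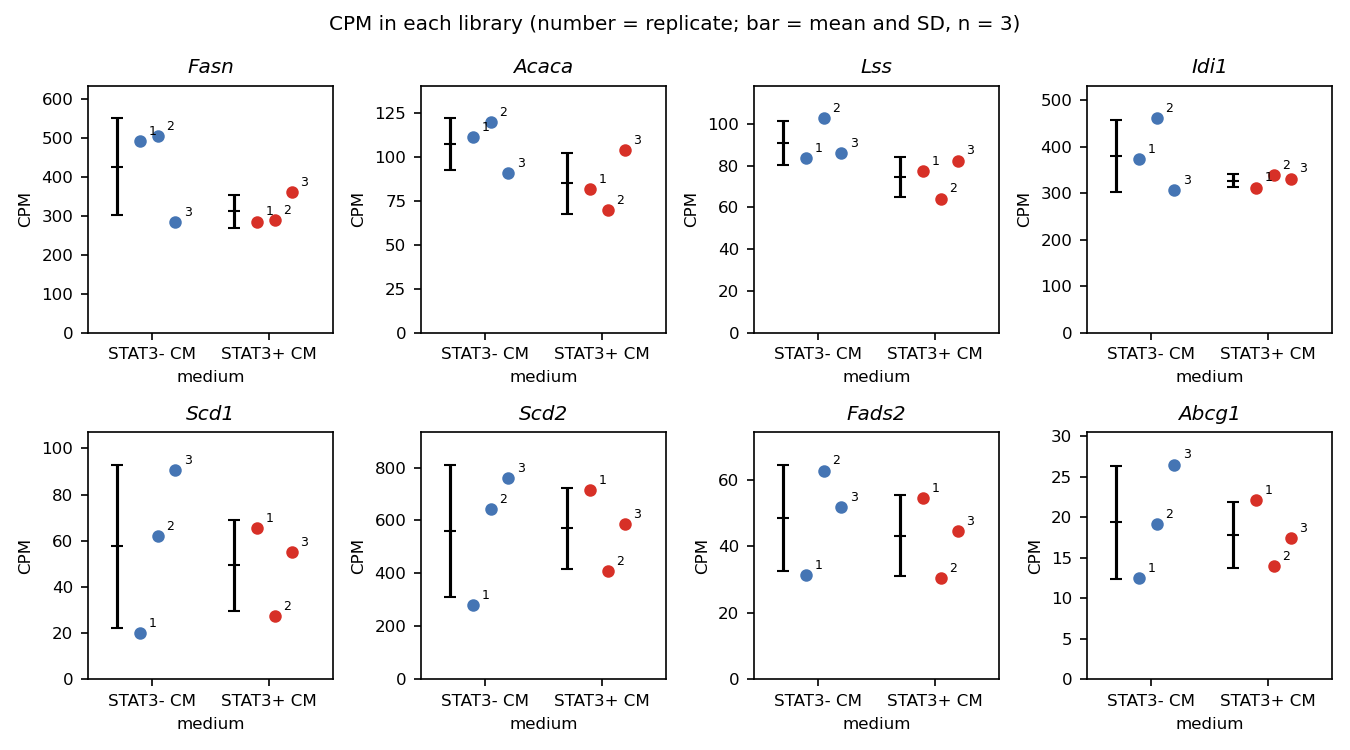
CPM in each library of 8 genes by medium (blue, STAT3- CM; red, STAT3+ CM), with the replicate number beside each point and the mean and SD of 3 libraries as a bar to the left. Fasn is high in STAT3- CM replicates 1 and 2 (492 and 503 CPM) alone, and Scd1, Scd2, Fads2 and Abcg1 are lowest in STAT3- CM replicate 1 and STAT3+ CM replicate 2.

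The desaturase genes Scd1, Scd2 and Fads2 differed widely between libraries that had the same medium. Scd1, which makes oleate from stearate, stood at 20, 62.0 and 90.5 CPM in STAT3- CM and at 65.5, 27.4 and 54.9 in STAT3+ CM (-0.22, SE 0.48). The highest library was 4.53-fold above the lowest, both of them in STAT3- CM, and 98.7% of all genes had a smaller SD within a medium. Scd2 stood at 280.5, 642 and 760.4 CPM and at 716, 408 and 586 (0.023, SE 0.33). Fads2, the first desaturase of polyunsaturated fatty acids, stood at 31.4, 62.9 and 51.9 CPM and at 54.7, 30.4 and 44.7 (-0.17, SE 0.27). In all 3 genes STAT3- CM replicate 1 and STAT3+ CM replicate 2 were the 2 lowest libraries. Acsl3 had the same 2 libraries lowest, at 15.7 and 16.4 CPM, and a log2 fold change of 0.0011 (SE 0.24). Elovl1 and Elovl5, elongases of long saturated and of polyunsaturated chains, Fads1, the desaturase after Fads2 in that pathway, and Acsl4 had log2 fold changes between -0.067 and 0.069. Their highest library was at most 1.52-fold above their lowest. Over the 12 genes the median log2 fold change was -0.043, with 5 above 0.

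In the LXR branch the receptor gene Nr1h2 was steady and the targets were low. Nr1h2 stood at 65.3, 57.7 and 62.2 CPM in STAT3- CM and at 63.9, 68.0 and 60.1 in STAT3+ CM (0.052, SE 0.12). Nr1h3 stood at 0.486, 0.298 and 0.303 CPM and at 0.330, 0.576 and 0.469 (0.34, SE 0.37), from 14 to 26 counts per library. Abca1, the exporter of cholesterol to apolipoproteins, stood at 1.28, 1.53 and 1.34 CPM and at 1.23, 0.793 and 1.39 (-0.26, SE 0.29), from 33 to 77 counts. The 95% interval of Abca1 ran from -0.90 to 0.38, a range that holds both lower and higher levels in STAT3+ CM. Mylip, the ubiquitin ligase IDOL that degrades lipoprotein receptors, stood at 4.26, 2.75 and 2.64 CPM and at 4.32, 4.08 and 2.78 (0.20, SE 0.27). Abcg1, the exporter to high-density lipoprotein, stood at 12.5, 19.2 and 26.5 CPM and at 22.1, 13.9 and 17.4 (-0.12, SE 0.26), with STAT3- CM replicate 1 and STAT3+ CM replicate 2 lowest as in Scd1, Scd2 and Fads2. The groups overlapped in all 5 genes.

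Read by library rather than by medium, many genes of the set shared an order. STAT3- CM replicate 1 was the lowest library in 13 of the 40 genes and STAT3+ CM replicate 2 in 15, or 32.5% and 37.5%, beside 13.9% and 22.4% of all genes. STAT3- CM replicate 2 was the highest in 18 (45.0%, beside 10.6% of all genes) and STAT3+ CM replicate 1 in 11 (27.5%, beside 19.2%). Both STAT3- CM replicate 1 and STAT3+ CM replicate 2 lay below the other 4 libraries in 18 of the 40 genes, or 45%, beside 7.33% of all genes. These 18 were Acat2, Hmgcs1 and Pmvk of the mevalonate branch, Msmo1, Nsdhl, Sc5d and Dhcr7 of the sterol steps, Srebf1, Srebf2 and Stard4, the fatty acid genes Scd1, Scd2, Elovl6, Fads1, Fads2, Acsl3 and Acsl4, and Abcg1. The 2 libraries were singled out after the values were seen, and the genes were measured in the same libraries, so the counts are a description. The 2 libraries belong to different media, so the order does not separate the groups.

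**Figure D4:**
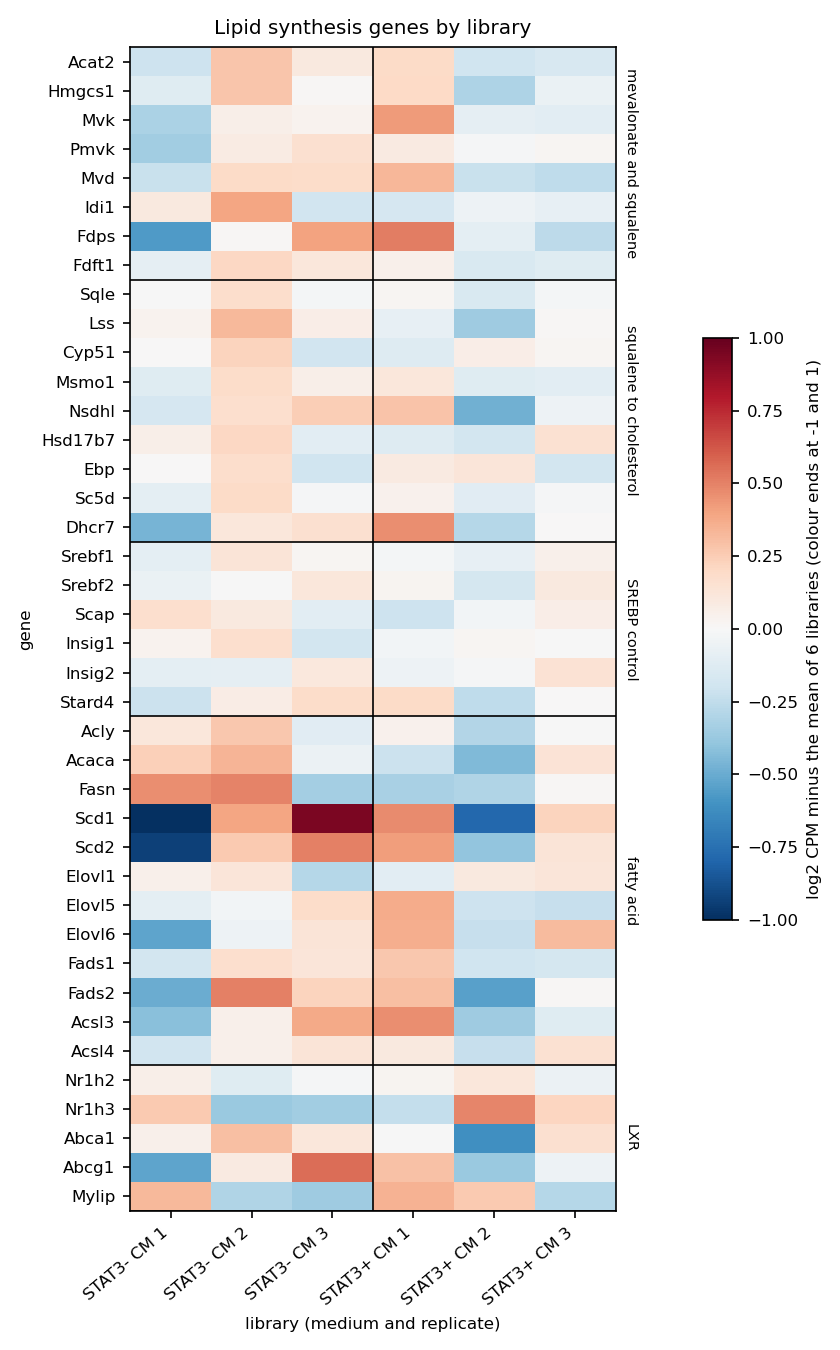
Log2 CPM of each gene minus its mean of 6 libraries, as colour (red above, blue below; the scale ends at -1 and 1), with libraries as columns and genes as rows in their groups. The columns of STAT3- CM replicate 1 and STAT3+ CM replicate 2 are mostly blue, with the darkest blue of the first in Scd1 and Scd2 and of the second in Scd1, while Fasn and Acaca are red in STAT3- CM replicates 1 and 2.

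Averaged over the 12 fatty acid genes, log2 CPM minus the mean of 6 libraries lay at -0.27 in STAT3- CM replicate 1 and at -0.32 in STAT3+ CM replicate 2, and at 0.21, 0.15, 0.18 and 0.048 in STAT3- CM replicates 2 and 3 and STAT3+ CM replicates 1 and 3. The 8 mevalonate genes lay at -0.22, 0.19 and 0.100 in STAT3- CM and at 0.20, -0.14 and -0.13 in STAT3+ CM. The 9 sterol genes spread less, at -0.085, 0.20 and 0.0013 and at 0.074, -0.17 and -0.019. Not every gene followed this order. Of the 40 genes 25 lay below their own mean in STAT3- CM replicate 1 and 33 in STAT3+ CM replicate 2. The others in STAT3- CM replicate 1, where Scd1 and Scd2 were lowest, lay above their means, Fasn, Acaca, Acly, Idi1 and Scap among them. The 5 markers of dividing cells (Mki67, Top2a, Ccnb1, Mcm5, Pcna) summed to 2590, 2899 and 2451 CPM in STAT3- CM and to 2862, 2149 and 2175 in STAT3+ CM. They were highest in STAT3- CM replicate 2 and STAT3+ CM replicate 1 and lowest in STAT3+ CM replicate 2, as were many genes of the set. They were not lowest in STAT3- CM replicate 1, and their part in the order was not tested.

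**Figure D5:**
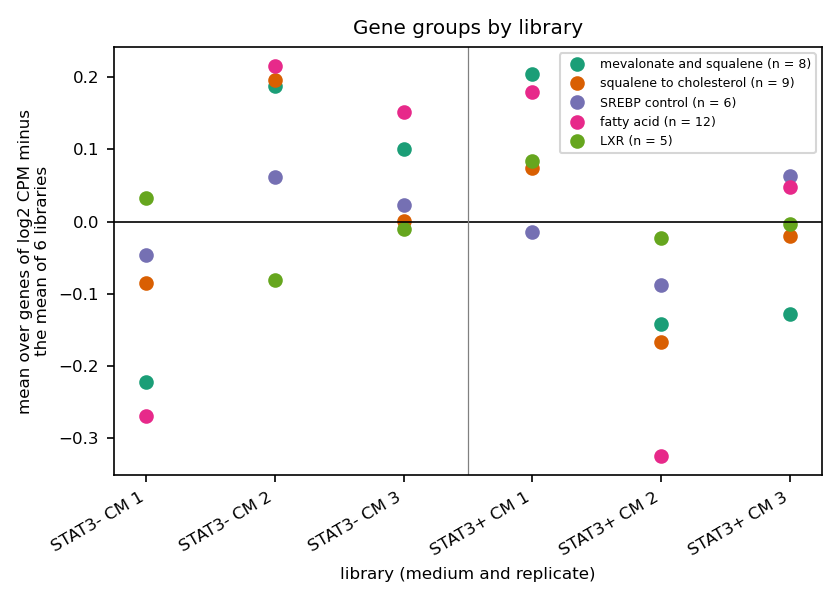
Mean over each gene group of log2 CPM minus the mean of 6 libraries (y axis) in each library (x axis); points are gene groups with their number of genes. The fatty acid genes lie lowest in STAT3- CM replicate 1 (-0.27) and STAT3+ CM replicate 2 (-0.32), 1 library of each medium.

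Of 54 other genes of these pathways, 50 were tested, 24 with log2 fold changes above 0 and 26 below, with a median of -0.0043. By edgeR 0 of the 50 passed the threshold, and 2 stood at an unadjusted p under 0.05, both lower. The libraries of the media did not overlap in 8 of the 50 (16%), beside 7.95% of all genes. Rxra, the retinoid X receptor alpha with which LXRs pair, stood at 15.7, 9.75 and 4.96 CPM in STAT3- CM and at 2.38, 4.40 and 3.20 in STAT3+ CM (-1.62, SE 0.40, adjusted p = 0.702 by edgeR). DESeq2 called it (adjusted p = 0.00696), as did edgeR without STAT3- CM replicate 3 (adjusted p = 0.0419, with a range of 0.0419 to 1.00 over the edgeR alternatives). Within STAT3- CM the 3 libraries of Rxra were far apart, with replicate 1 highest. The dendritic cell markers given above also summed lower in STAT3+ CM, and their part in the value of Rxra was not tested. Me1, the malic enzyme that supplies NADPH for fatty acid synthesis, was the second at an unadjusted p under 0.05 and was chosen after its values were seen. It stood at 0.817, 0.681 and 0.368 CPM and at 0.308, 0.336 and 0.253 (-1.07, SE 0.40, adjusted p = 0.989). Among genes of SREBP processing (cleavage, retention and turnover) 6 of 7 lay below 0, with a median of -0.078, and among 8 genes of fatty acid oxidation 6 lay above 0, with a median of 0.11. None of these genes passed the threshold.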

How the data were processed

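Polyadenylated RNA of 6 libraries was analysed, 3 per medium. Per the labels' protocols, 500 ng of RNA (quality number 9.0 to 9.8) entered a directional NEBNext Ultra II preparation. The authors deposited raw counts of reads per gene, as whole numbers. The submitters' processing notes list the build GRCm39 and the tools Cufflinks 2.2.1, SAMtools 0.1.19, Bowtie 1.0.0, TopHat2 2.0.10 and FastQC. The counting program, with its annotation and strand setting, was not given in the sources used here.

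Counts were filtered with filterByExpr (14319 of 14481 genes kept, all 40 of the set among them), scaled by TMM factors (0.9605 to 1.06) and compared with edgeR 4.0.16 (R 4.3.3), robust quasi-likelihood F test, two-sided, with Benjamini-Hochberg adjustment over every gene tested and a threshold of 0.05. Each SE was the size of the log2 fold change divided by the root of its F statistic. Log2 CPM used a prior count of 2. Lengths came from GENCODE vM21 (GRCm38), where all 40 symbols matched, and no coordinates were converted. The workflow was tested on simulated counts.

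The genes of the set and the lists were chosen with earlier results of these data known. By rule, values in every library were given for the 3 genes of each group with the smallest p, genes whose groups did not overlap and the SREBP and LXR regulators, and for other pathway genes with an unadjusted p under 0.01. Hmgcs1, Fdps, Dhcr7, Acly, Scd1, Scd2, Fads2, Abcg1 and Me1 were added after their values were seen. The rule for promoters, an SRE in a gene named by its p or its lack of overlap, selected none, so the 3 printed were chosen after values were seen. Alternatives were DESeq2 1.42.0, limma-voom (limma 3.58.1), the older quasi-likelihood method, RLE scaling, library totals only, no filter, a filter of 1 CPM in 3 libraries, a replicate block, each library left out in turn and the 2 outlying libraries left out together. The labels do not say whether equal replicate numbers mark pairs, and 3 libraries per group cannot settle it. For equal numbers, deviations from the group means correlated across genes at -0.261, 0.281 and 0.182. The highest such correlation, 0.423, was between STAT3- CM replicate 1 and STAT3+ CM replicate 2.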

Additional observations from a re-analysis of the deposited data

How the results depend on the processing

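Over 15 alternatives no gene of the set passed the adjusted threshold in either direction, and of 599 values of single genes 543 kept their sign and 56, in 25 genes, had the opposite sign, 4 of these genes with all 6 libraries kept. Each library was also left out in turn, by edgeR. At an unadjusted p under 0.05 then stood 0 to 3 of the 40 genes, beside 2.03% to 9.45% of all genes. Without overlap were 1 to 8 of the 40, beside 11.3% to 28.0% of all genes. The 8 came without STAT3- CM replicate 3, where the share of all genes was 22.9%. The number with a positive log2 fold change ran from 8 (without replicate 1 of either medium) to 23 (without STAT3+ CM replicate 2). In the fit without STAT3+ CM replicate 2 the median over the 40 was 0.010. Calls among all genes ran from 0 to 18. Those among other pathway genes ran from 0 to 1 (Rxra, without STAT3- CM replicate 3). Without both outlying libraries, STAT3- CM replicate 3 and STAT3+ CM replicate 1, 2 genes of the set stood at an unadjusted p under 0.05 and 11 did not overlap, beside 35.3% of all genes, and 10 of all genes were called. DESeq2 had 1 gene of the set at an unadjusted p under 0.05, beside 3.67% of all genes. It called 48 genes, 1 of them an other pathway gene (Rxra). With library totals only 1 gene of the set (Fasn) stood at an unadjusted p under 0.05, beside 3.40% of all genes. With that scaling 0 of the 40 did not overlap, beside 7.63% of all genes. The median of all genes was then -0.042 and that of the other pathway genes -0.048. With at least 1 CPM in at least 3 libraries the LXR median was -0.040, as Nr1h3 left the test.

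Signs opposite to those reported were given by library totals only for Ebp (-0.030), Scd2 (-0.029), Acsl3 (-0.051) and Acsl4 (-0.031), and for Acsl3 also by the stricter filter (-0.0053), limma-voom (-0.0048) and the replicate block (-0.012). The replicate block changed no call and no other sign in the set. With it 4.95% of all genes stood at an unadjusted p under 0.05 by edgeR, beside 3.64% without it. Without both outlying libraries they were given for Ebp (-0.11), Srebf2 (0.0054), Scd1 (0.0079), Acsl3 (-0.064) and Mylip (-0.043, against 0.46 without STAT3- CM replicate 1), while Hmgcs1 stood at -0.28. With each library left out in turn, log2 fold changes spanned 0 for 24 genes, namely Hmgcs1 (-0.25 to 0.0062), Mvk (-0.030 to 0.26), Pmvk (-0.087 to 0.15), Mvd (-0.30 to 0.021), Fdps (-0.18 to 0.34), Cyp51 (-0.13 to 0.077), Nsdhl (-0.34 to 0.033), Ebp (-0.078 to 0.11), Sc5d (-0.12 to 0.020), Dhcr7 (-0.093 to 0.29), Srebf1 (-0.089 to 0.017), Srebf2 (-0.085 to 0.050), Insig1 (-0.10 to 0.066), Insig2 (-0.0057 to 0.13), Stard4 (-0.14 to 0.077), Scd1 (-0.63 to 0.26), Scd2 (-0.30 to 0.30), Elovl1 (-0.045 to 0.15), Elovl5 (-0.24 to 0.086), Fads1 (-0.23 to 0.014), Fads2 (-0.41 to 0.048), Acsl3 (-0.27 to 0.21), Acsl4 (-0.077 to 0.12), Abcg1 (-0.36 to 0.17). The cause of these changes was not tested. RPKM values depend on the transcript length used. The genes with few counts, Nr1h3 (SE 0.37) and Abca1 (SE 0.29), had wide intervals. So did Scd1 (SE 0.48) and Scd2 (SE 0.33), which had more counts.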
